A study of Macaca mulatta with 4 samples.

Results

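The regions described here are stretches of open chromatin that were found in both androgenetic (AG) DNase-seq libraries of rhesus macaque (Macaca mulatta) morulae, in neither gynogenetic (GG) library, and more than 50 kb away from any region found in all 4 libraries. Hotspots of the 4 lists that overlapped or touched were merged, and the gap was measured to the nearest region called in all 4 libraries on the same chromosome. On chromosomes 1 to 20 this gave 2115 regions out of 222776 merged regions, and out of 4727 AG-only regions in all, which were 2.12% of the merged regions. The study has 2 AG libraries (morulae with androgenetic genomes, labelled replicates 1 and 2) and 2 GG libraries (morulae with gynogenetic genomes, labelled replicates 1 and 2), and both were digested at 37 °C for 5 min with DNase I at 40 U/ml. The regions were chosen by the AG and GG hotspot calls themselves, so the difference between AG and GG at the regions is a description and carries no test.

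An androgenetic embryo carries nuclear chromosomes from sperm only, and a gynogenetic embryo from the oocyte only, so the pair sets paternal against maternal chromatin. Sperm chromatin is packed largely with protamines, which are exchanged for histones after fertilisation, while oocyte chromatin keeps its histones. DNase I cuts accessible DNA, and a hotspot is a stretch with more cuts than its surroundings. Accessible sites lying far from other accessible sites are known to include distal enhancers and insulators as well as weakly open sites in otherwise closed chromatin. Making the embryos, the parents used and parental origin cannot be told apart here. Positions are those of rheMac8, counted from 1, and no gene is named, since an annotation of rheMac8 was not used here. For the same reason the labelled stage was not checked against marker genes.

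The lists held 64712 and 85269 hotspots on these chromosomes in AG replicates 1 and 2, against 93089 and 84748 in GG replicates 1 and 2, and covered 67.8 and 84.3 Mb against 102 and 93.1 Mb. Read counts are not part of the lists, and depth is therefore unknown. Whether replicates are separate pools of embryos is not stated in the labels, so a p-value over libraries reflects the spread of these 4 samples alone, and that spread may be technical. With 2 libraries against 2, no two-sided exact permutation p can fall below 0.333.

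Far from shared open chromatin, AG-only regions were fewer than GG-only regions. The AG-only regions made up 1.69% of the 124880 merged regions that lay more than 50 kb from a region called in all 4 libraries. GG-only regions made up 5.23% of these (6529). Pairs of 1 AG and 1 GG library shared 1344 to 1967 such regions that the remaining libraries lacked. The 2115 AG-only regions were 1.26 times the mean of these 4 mixed pairs, and the GG-only regions were 3.90 times that mean. Within 50 kb of shared regions, 2612 AG-only regions were 1.49 times the mixed mean and 5681 GG-only regions 3.23 times. Strong sharing within GG takes regions away from the mixed pairs, so their mean is a yardstick and not a chance level. The AG lists also covered less sequence than the GG lists, and these multiples were not worked out for lists of equal length. The AG libraries thus exceeded the mixed pairs by less in the far sequence than near shared open chromatin, and the GG libraries by more. Of all AG-only regions 44.7% lay beyond 50 kb, of GG-only regions 53.5%, of mixed pairs 46.8 to 52.5% and of regions called in 1 library 57.6 to 64.5%. There were 3.09 far GG-only regions per far AG-only region, but 1.37 when every list was shortened by score to the covered length of the shortest. The shortened lists gave 2382 far AG-only and 3265 far GG-only regions. When an AG library was dropped, a hotspot in the other sufficed, and far AG-only regions then numbered 30996 without AG replicate 1 and 16807 without AG replicate 2. The ratio was 0.229 and 0.388 without AG replicates 1 and 2, and 11.8 and 13.8 without GG replicates 1 and 2.

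**Figure D1:**
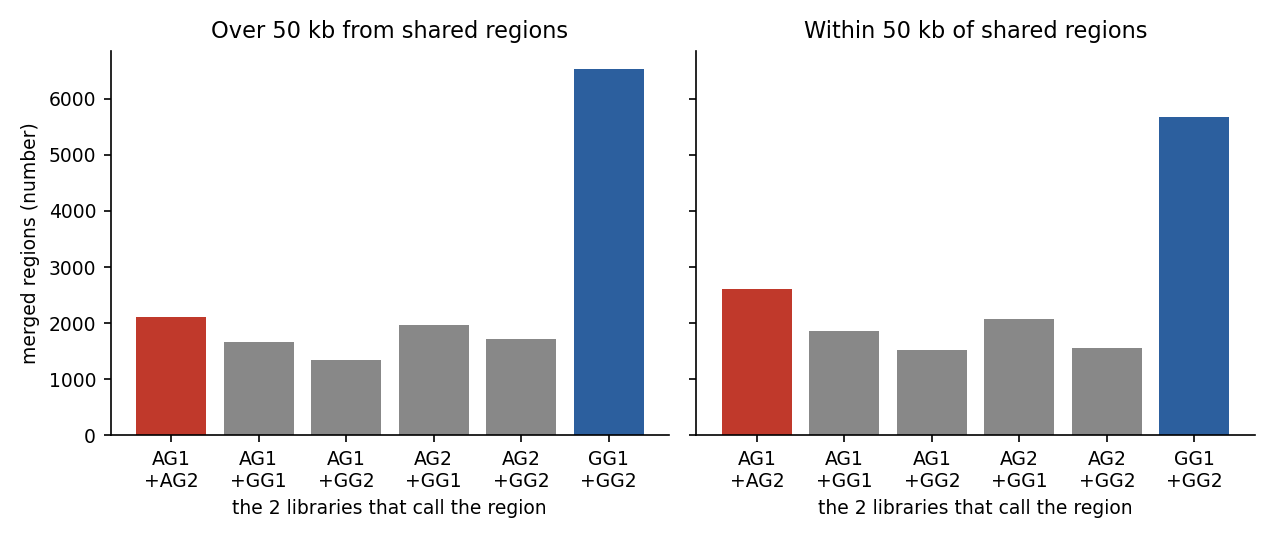
Number of merged regions called in exactly 2 libraries, by the pair that calls them, over 50 kb from a region called in all 4 libraries (left) and within 50 kb (right). The AG pair (red) has 2115 far regions against 1344 to 1967 in the mixed pairs (grey) and 6529 in the GG pair (blue).

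The share of AG-only regions fell off with distance from shared open chromatin. At gaps of 50 to 100 kb there were 775 AG-only and 1902 GG-only regions, or 2.45 GG-only per AG-only region. At gaps of 100 to 200 kb the numbers were 577 and 1718 (2.98), at 200 to 500 kb 480 and 1695 (3.53), and beyond 500 kb 283 and 1214 (4.29). Set against the mean of the mixed pairs, AG-only regions stood at 1.44 times in the nearest of these bins and at 1.12 times in both bins beyond 200 kb. Single mixed pairs ran from 337 to 521 regions at 200 to 500 kb and from 169 to 348 beyond 500 kb. The AG-only numbers thus lay within the range of the mixed pairs in both bins. GG-only regions stood at 3.54 times in the nearest bin and 4.81 times in the farthest. The ratio beyond 500 kb was 1.75 times that at 50 to 100 kb, and it was 1.76 to 1.84 times in lists of equal length, lists of equal number and lists cut to their higher-scoring 50%. Without AG replicate 1 it was 0.709, without AG replicate 2 1.05, and without GG replicates 1 and 2 2.99 and 3.07, so the trend does not hold when AG-only regions rest on 1 AG library.

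Regions called in 1 library only are not among the 2115 regions and were counted by gap in the same way. They come from the same lists and the same gap rule, so they are not independent of the 2115. Of the far regions called in 1 library, 16.8% and 20.1% in AG replicates 1 and 2 lay beyond 500 kb, against 24.6% and 23.3% in GG replicates 1 and 2. The means were 18.4 ± 2.35% in AG and 24.0 ± 0.932% in GG (SD, n = 2 libraries each, two-sided exact permutation p = 0.333). Both AG libraries lay below both GG libraries.

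The far AG-only regions were built from hotspots of ordinary size. Hotspot width per region had medians of 868 and 908 bp in AG replicates 1 and 2, beside 904 and 891 bp over those lists. Merged over the lists, the regions had a median width of 1250.0 bp, with quartiles of 979.0 and 1692 bp. The extremes were 113 and 11222 bp, and together the regions spanned 2.99 Mb. AG-only regions within 50 kb were wider at the median (1380.5 bp), as were far GG-only regions (1355 bp), and the far regions of mixed pairs were narrower (1160.0 to 1178 bp). In 2073 of the 2115 regions (98.0%) each AG library contributed 1 hotspot. The 2 libraries covered a median of 542 bp in common, which was 44.5% of the merged width. In 1218 regions (57.6%) less than 50% of the width was common to both, and in 2 regions the hotspots only touched. The corresponding median was 49.4% in far GG-only regions and 38.6 to 44.8% in the mixed pairs.

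The regions had scores typical of their lists. The score is the authors' own value for a hotspot, its lowest values were 4.33 and 4.13 in the lists of AG replicates 1 and 2, and its scale is not known. In AG replicate 1 the regions had a median score of 5.57, with quartiles of 4.80 and 6.82, beside a median of 5.50 over that list. In AG replicate 2 they had a median of 5.33, with quartiles of 4.67 and 6.62, beside 5.15 over that list. They thus sat close to the middle of each AG list, above 51.9% and 55.3% of it at the median, and 47.8% and 44.3% of them lay in its lower 50%. A hotspot among the top 10% of its list was found in 142 regions in AG replicate 1 (6.71%) and in 190 in AG replicate 2 (8.98%). In 58 regions (2.74%) both libraries placed it there, and in 709 (33.5%) both placed it in the upper 50%. For regions of AG-only type within 50 kb the share with both in the upper 50% was 39.8%, for far GG-only regions 37.8%, and for far regions of mixed pairs 21.4 to 23.5%. The top 10% in both libraries was reached by 3.33% of AG-only regions within 50 kb, by 1.59% of far GG-only regions and by 0.521 to 1.86% of those of mixed pairs.

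**Figure D2:**
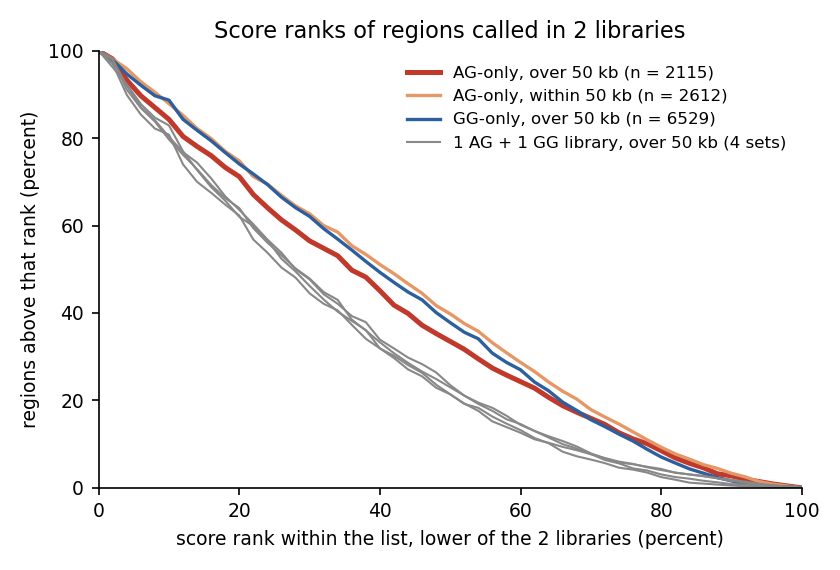
Share of regions (percent) whose score rank exceeds a given percentage of the list in both libraries that call them. At rank 50 the far AG-only curve (red, 33.5% of regions) lies below the far GG-only curve (blue, 37.8%) and the AG-only curve within 50 kb (orange, 39.8%) and above the 4 mixed pairs (grey, 21.4 to 23.5%), while at rank 90 it lies above the GG-only curve (2.74% against 1.59%).

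A handful of regions had scores far above the rest. The strongest lay on chromosome 16 at 24047939 to 24052866 and spanned 4928 bp. It scored 44.7 in AG replicate 1, as 1 hotspot of 4694 bp, and 54.2 in AG replicate 2, as 3 hotspots of 2734 bp in all, at the 99.8th percentile of either list. Shared open chromatin was 57.2 kb away, and the nearest GG hotspots lay 3.99 and 6.07 kb away in GG replicates 1 and 2. The next was on chromosome 6 at 2912450 to 2913874, with scores of 36.5 and 27.4 in AG replicates 1 and 2, and it lay 546 kb from a region called in all 4 libraries. A region of 1015 bp on chromosome 11 at 100869083 to 100870097 scored 25.9 and 59.4. It had GG hotspots at 0.456 and 0.411 kb from its edge in GG replicates 1 and 2, so GG embryos were open beside it. By contrast, chromosome 19 at 36728543 to 36729486 scored 29.5 and 23.9 and had its nearest GG hotspots 57.8 and 63.1 kb away in GG replicates 1 and 2.

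The other 4 of the 8 highest lay on chromosomes 19, 17, 2 and 1. Chromosome 19 at 52399221 to 52403576 was 4356 bp wide and scored 21.4 and 18.9 in AG replicates 1 and 2. Chromosome 17 at 13113145 to 13115168 scored 17.0 and 19.5, with GG hotspots at 45.3 and 37.3 kb. These 2 regions were covered over most of their width by both AG libraries, with 3855 and 1351 bp in common. Chromosome 2 at 163978363 to 163979565 scored 16.7 and 25.7 and had a GG replicate 1 hotspot 1.69 kb away. Chromosome 1 at 55458454 to 55459155 scored 21.9 and 16.2 and lay 571 kb from shared open chromatin, with GG hotspots 303 and 47.9 kb away in GG replicates 1 and 2. All 8 were also found as far AG-only regions in lists of equal number, in lists of equal covered length and in lists cut to their higher-scoring 50%. Shortening by score keeps the highest-scoring hotspots and adds no GG hotspot. That result therefore followed from how the 8 were picked and is no check of them. With 50% of the region's width required in each library they were found too, and 6 of the 8 remained beyond a gap of 100 kb. Without AG replicate 1 they numbered 5, without AG replicate 2 and without GG replicate 2 they numbered 7 each, and without GG replicate 1 all 8 were found. With a library left out, a region called in all remaining libraries counted as shared. Only the shorter gaps could then remove one of the 8, so these numbers do not check the calls.

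The widest region began at base 234 of chromosome 17 and ended at 11455. AG replicate 2 covered all of its 11222 bp with 1 hotspot scoring 15.8, and AG replicate 1 covered 7365 bp with 2 hotspots, the higher scoring 10.7. No GG hotspot lay within 54 kb of it: the nearest were 54.2 kb away in GG replicate 1 and 54.5 kb away in GG replicate 2. The others of this rank were chromosome 19 at 50053919 to 50061271 (7353 bp), chromosome 13 at 90001253 to 90006869 (5617 bp), chromosome 10 at 70536912 to 70542313 (5402 bp) and chromosome 20 at 33562009 to 33567408 (5400 bp). Of these, the region on chromosome 19 had 4485 bp common to both AG libraries and scores of 13.6 and 14.1. The region on chromosome 20 had 719 bp in common, since AG replicate 2 covered 910 bp of it and AG replicate 1 5209 bp. A great merged width therefore did not always stand for a stretch open in both libraries.

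The region farthest from shared open chromatin, on chromosome 7 at 103979444 to 103980426, was 2875 kb from it and scored 4.47 and 4.51 in AG replicates 1 and 2. Chromosome 12 at 30424724 to 30425053 (2586 kb; 4.66 and 4.48), chromosome 14 at 26797753 to 26798877 (2451 kb; 4.59 and 6.44), chromosome 13 at 58936890 to 58938154 (2258 kb; 7.11 and 8.78) and chromosome 12 at 15503078 to 15504004 (2060.4 kb; 5.11 and 4.26) followed. Apart from that on chromosome 13, at least 1 AG library scored each of them below 4.6. Over all regions the score in the weaker AG library changed little with distance, with a median of 4.92 at 50 to 100 kb and 4.77 beyond 500 kb.

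Regions on either side of the 50 kb limit had similar weaker scores at the median, while single regions varied. The 3 just beyond it had gaps of 50048 bp (chromosome 10 at 92007851 to 92010289, scores 6.81 and 6.18 in AG replicates 1 and 2), 50154 bp (chromosome 4 at 30209636 to 30211432, 11.1 and 15.4) and 50233 bp (chromosome 11 at 95203761 to 95205954, 5.24 and 4.61). The 3 just inside had gaps of 49920 bp (chromosome 7 at 92368504 to 92369567, 4.72 and 4.98), 49856 bp (chromosome 5 at 112518177 to 112519026, 4.40 and 4.19) and 49840 bp (chromosome 12 at 84110797 to 84112962, 8.48 and 6.36). The 226 regions at gaps of 50 to 60 kb had a median weaker score of 4.94, and the 276 at 40 to 50 kb one of 4.93. Their median widths were 1299.5 and 1368 bp, and their median distances to the nearest GG hotspot 5.19 and 4.15 kb.

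Few of the regions were remote from every GG hotspot. The median distance to the nearest hotspot was 12.6 kb for GG replicate 1, 12.8 kb for GG replicate 2 and 6.83 kb for either. A GG hotspot lay within 1 kb of 288 regions (13.6%), within 10 kb of 1314 (62.1%) and within 50 kb of 2039 (96.4%). In 9 regions (0.426%) there was none within 100 kb, and the weaker AG score had a median of 5.84 in these. For comparison, far GG-only regions had an AG hotspot within 10 kb in 56.9% and none within 100 kb in 0.873%. These distances depend on how many hotspots a list holds. Being far from a region called in all 4 libraries was thus not the same as being far from GG open chromatin.

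The regions were mostly scattered singly. The sequence more than 50 kb from shared regions comprised 4748 stretches, 1871 Mb in all, of which 1427 held at least 1 of the regions and 974 exactly 1. Both AG-only and GG-only regions occurred in 959 stretches, AG-only regions without any GG-only region in 468, and GG-only regions without any AG-only region in 1413. The median distance from a region to the next of its kind was 332 kb, against 64.9 kb among the more numerous far GG-only regions. When regions no more than 100 kb apart were chained, 1551 (73.3%) stood alone, 436 formed 218 pairs, and 6 was the most in any chain.

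The chain of 6 lay on chromosome 12 at 114814089 to 114918429, a length of 104 kb. Its regions were 785 to 1979 bp wide and had weaker scores of 4.47 to 5.58. The region at its start, 114814089 to 114815326, had the highest weaker score, with 5.58 and 6.98 in AG replicates 1 and 2. Over the whole chain AG replicates 1 and 2 had 10 and 11 hotspots covering 9.89 and 10.1 kb, against 3 and 2 hotspots covering 2.70 and 1.02 kb in GG replicates 1 and 2. There were 5 chains of 4, and the 2 with the highest weaker score of any of their regions are given. The chain on chromosome 20 at 69071925 to 69214289 had 7 and 10 hotspots in AG replicates 1 and 2, against 1 and 2 in GG replicates 1 and 2. Its strongest region, at 69202927 to 69207772, scored 8.10 and 8.67. The chain on chromosome 7 at 137873467 to 137986663 had 8 and 7 hotspots in AG replicates 1 and 2, against 4 and 6 in GG replicates 1 and 2. None of the 3 chains held a GG-only region, and they were chosen for their AG-only regions, so the excess in AG is a description.

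The regions were unevenly spread over the chromosomes. Because the gap rule favours chromosomes with little shared open chromatin, numbers were set against the sequence more than 50 kb from it. Chromosome 19 had 38 regions in 12.8 Mb of such sequence (2.97 per Mb), chromosome 16 had 78 in 35.3 Mb (2.21), chromosome 10 had 98 in 54.0 Mb (1.81) and chromosome 20 had 82 in 48.4 Mb (1.70). Chromosome 5 had the fewest per Mb, with 108 in 152 Mb (0.710), and chromosome 4 followed with 104 in 124 Mb (0.840). The value over all 20 was 1.13 per Mb. Far GG-only regions varied by a smaller factor, from 2.15 per Mb on chromosome 20 to 4.65 on chromosome 16. Their number per AG-only region was 1.11 on chromosome 19, 1.27 on chromosome 20 and 1.56 on chromosome 10, and 4.98 on chromosome 5, 4.80 on chromosome 4 and 4.52 on chromosome 9. Chromosomes 19 and 20 also had 2.17 and 2.06 AG-only regions for each region of the mean mixed pair, while chromosomes 4, 5 and 9 had 0.895, 0.931 and 0.942. Across the 20 chromosomes, far AG-only regions per Mb of this sequence went with the density of regions called in all 4 libraries (Spearman rho 0.735). For GG-only regions rho was 0.147, and for the mixed pairs it was not computed. The mean mixed pair was also densest on chromosomes 19 and 16 (1.37 and 1.31 per Mb). It had 0.762 per Mb on chromosome 5 and 0.822 on chromosome 20, beside 0.894 over all 20. The chromosomes share the same 4 libraries, so these values are descriptions. The GG-only number per AG-only region on chromosome 5 was 4.51 times that on chromosome 19, and 2.28 and 2.44 times without AG replicates 1 and 2.

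**Figure D3:**
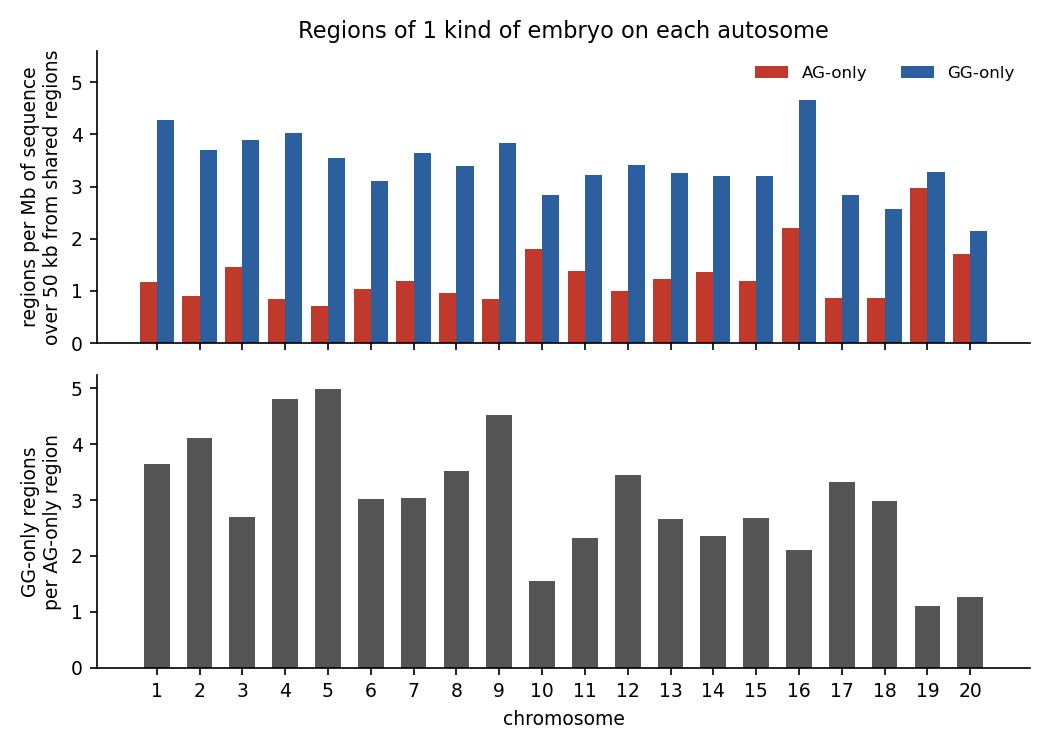
Upper panel, AG-only (red) and GG-only (blue) regions per Mb of sequence more than 50 kb from a region called in all 4 libraries, by chromosome. Lower panel, GG-only regions per AG-only region, which runs from 1.11 on chromosome 19 to 4.98 on chromosome 5.

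Chromosomes 10, 16, 19 and 20 on one side and 4 and 5 on the other also differed among far regions called in 1 library. Those are other regions of the same lists, so they are no independent check. Chromosome 20 held 3.25 ± 0.364% of these in AG and 1.84 ± 0.184% in GG (SD, n = 2 libraries each). Chromosome 19 held 0.949% and 1.08% in AG, against 0.637% and 0.390% in GG. Chromosome 5 held 5.18% and 7.19% in AG, against 9.84% and 7.86% in GG. Chromosome 4 held 4.12% and 6.88% in AG replicates 1 and 2, against 8.67% and 6.93% in GG replicates 1 and 2. On chromosome 4 AG replicate 2 and GG replicate 2 were thus nearly equal. Both AG libraries lay above both GG libraries on 7 of the 20 chromosomes (35.0%), namely 9, 10, 11, 14, 16, 19 and 20, and below both on 5 (25.0%), namely 2, 3, 4, 5 and 17. By exact permutation, two-sided, p was 0.333 for each of these, the smallest possible, and the 20 shares of a library are not independent. Chromosome 9 had a higher AG share here (5.81% and 5.22% in AG, against 5.05% and 4.24% in GG) although its AG-only regions were scarce. Chromosome 3 went the other way, with 7.89% and 7.98% in AG, against 9.11% and 8.74% in GG, although it held 9.31% of far AG-only and 8.10% of far GG-only regions.

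Far AG-only regions were dense towards the ends of chromosomes. Within 5 Mb of either end, taken as the start of the sequence and the last hotspot of any list, lay 262 of them (12.4%), although this part held 6.75% of the sequence more than 50 kb from shared regions. Of far GG-only regions 6.37% lay there, and of each mixed pair at most 8.56%. Per Mb, there were 3.20 AG-only regions within 1 Mb of an end, 1.85 at 1 to 5 Mb, 1.22 at 5 to 10 Mb, 1.30 at 10 to 20 Mb, 1.10 at 20 to 40 Mb and 0.933 beyond 40 Mb. GG-only regions kept to 3.27 to 3.58 per Mb throughout. The mean of the mixed pairs was also higher at the ends, at 1.41 per Mb within 1 Mb and 0.854 beyond 40 Mb, so AG-only regions stood at 2.27 times the mixed mean in the outermost bin and 1.09 times in the innermost. Far regions called in both AG libraries and GG replicate 1 lay in the outer 5 Mb in 11.6%, and those called in both AG libraries and GG replicate 2 in 9.57%. Within 1 Mb of an end AG-only and GG-only regions were therefore nearly equal in number, at 67 and 71, where beyond 40 Mb there were 757 and 2907. AG-only regions within 50 kb of shared open chromatin also lay in the outer 5 Mb in 11.6%, and regions called in all 4 libraries in 9.80%.

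**Figure D4:**
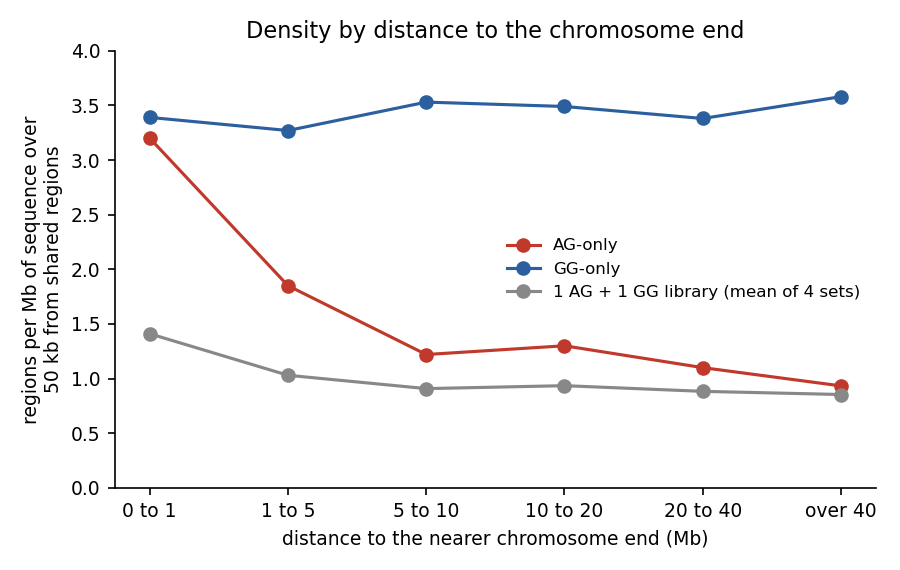
Regions per Mb of sequence more than 50 kb from shared regions, by distance to the nearer chromosome end (Mb), for AG-only (red), GG-only (blue) and the mean of the mixed pairs (grey). AG-only density is 3.20 per Mb in the outermost bin and 0.933 in the innermost, GG-only density stays between 3.27 and 3.58, and the mixed mean is 1.41 in the outermost bin and 0.854 in the innermost.

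The excess at the ends was found on most chromosomes. The outer 5 Mb held a larger share of the regions than of the available sequence on 17 of 20 chromosomes, the exceptions being 4, 18 and 20. Chromosome 16 had 18 of its 78 regions there (23.1%, against 11.9% of the sequence) and chromosome 12 had 17 of 95 (17.9%, against 6.80%). Without chromosomes 10, 16, 19 and 20, 11.4% of the remaining 1819 regions lay in the outer 5 Mb, against 6.36% of their available sequence. Among far regions called in 1 library, 9.10% and 8.46% in AG replicates 1 and 2 lay in the outer 5 Mb, against 6.41% and 6.55% in GG replicates 1 and 2. The means were 8.78 ± 0.453% in AG and 6.48 ± 0.102% in GG (SD, n = 2 libraries each, two-sided exact permutation p = 0.333), and the groups did not overlap. Those regions come from the same lists as the far AG-only regions and are not independent of them. How well reads map near chromosome ends was not measured here.

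The sequence around the regions was examined next, with AG-only and GG-only regions themselves left out so that the hotspots counted were not those that chose them. Coverage is given relative to the same library's covered share of chromosomes 1 to 20. In the 50 kb on either side, 189.8 Mb in all, it was 0.762 and 0.864 in AG replicates 1 and 2, against 0.683 and 0.673 in GG replicates 1 and 2. The means were 0.813 ± 0.0724 in AG and 0.678 ± 0.00709 in GG (SD, n = 2 libraries each), a difference of 0.135 with a two-sided exact permutation p of 0.333. All 4 libraries lay below 1 because the rule keeps shared regions out of these flanks. Around far GG-only regions the order was the opposite, at 0.595 and 0.694 in AG, against 0.824 and 0.793 in GG. Both sets of flanks were placed by calls from the same lists. Their coverage is therefore not independent of the choice of regions, and the differences are descriptions. In the remaining sequence away from shared regions it was 0.353 and 0.509 in AG, against 0.419 and 0.411 in GG.

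The excess of AG hotspots was largest close to the regions. In the first 5 kb the relative coverage was 1.21 and 1.20 in AG replicates 1 and 2, against 0.714 and 0.763 in GG replicates 1 and 2. A GG hotspot reaching into a region would have removed it, so low GG coverage right beside the regions is partly set by the rule. From 20 to 50 kb, bins of 5 kb ranged over 0.675 to 0.766 in AG replicate 1 and 0.797 to 0.878 in AG replicate 2, against 0.666 to 0.706 in GG replicate 1 and 0.615 to 0.709 in GG replicate 2. At that distance AG replicate 1 overlapped the GG libraries and AG replicate 2 did not. The difference over 50 kb was 0.0837 without AG replicate 2 and 0.186 without AG replicate 1. Relative to each library's own coverage of the sequence far from shared regions, the flanks stood at 1.81 and 1.53 in AG and at 1.32 and 1.33 in GG, a difference of 0.343.

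**Figure D5:**
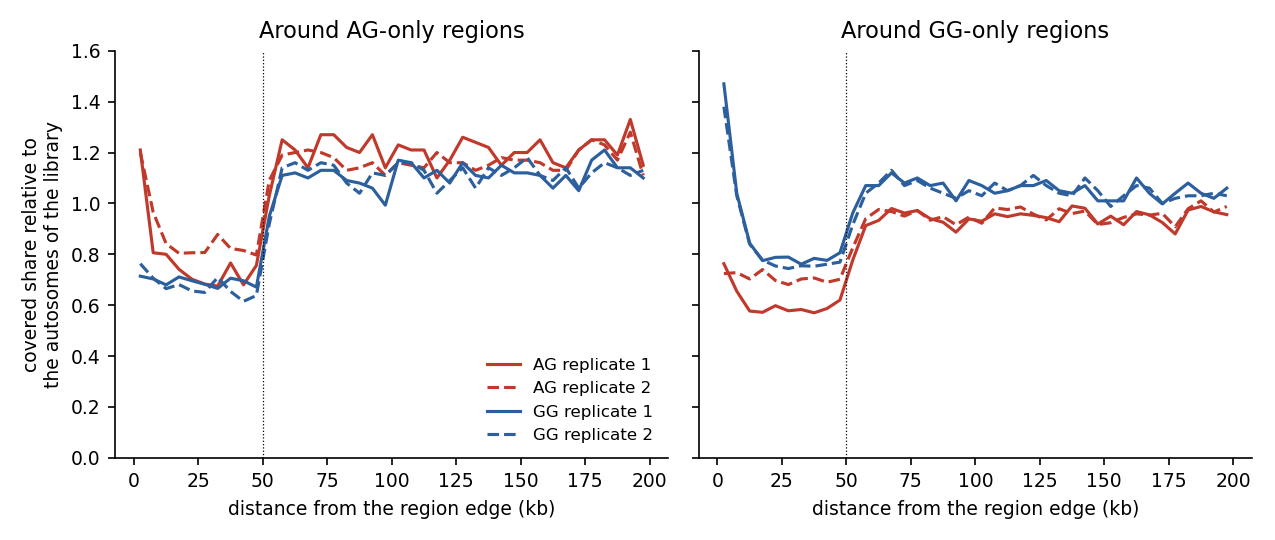
Covered share by distance from the edge of far AG-only (left) and far GG-only regions (right), in bins of 5 kb and relative to each library's covered share of chromosomes 1 to 20, with AG-only and GG-only regions left out. Around AG-only regions AG replicates 1 and 2 (red) start at 1.21 and 1.20 and GG replicates 1 and 2 (blue) at 0.714 and 0.763; the dotted line marks 50 kb, inside which no region called in all 4 libraries can lie.

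Windows of 1 Mb leaned the same way. The hotspots outside AG-only and GG-only regions were summed per window, scaled to the library mean and compared on the log2 scale. Of 2682 windows, 1354 held at least 1 far AG-only region, and these included all 2115. Both AG libraries lay above both GG libraries in 339 of the 1354 (25.0%), against 20.6% of all windows, and below both in 262 (19.4%), against 24.5% of all windows. The median log2 difference, AG minus GG, was 0.04 in windows with such regions and -0.04 over all windows. It was -0.13 in the 1328 windows with none, -0.01 in 854 with 1, 0.07 in 319 with 2, 0.15 in 123 with 3 and 0.28 in 58 with 4 or more. Both AG libraries lay above both GG libraries in 16.1% of windows with none and 48.3% of those with 4 or more. The regions and the remaining hotspots come from the same libraries, so these shares describe where hotspots lay and are not independent of one another. Scaling to the median instead of the mean moved the median of all windows by 0.102 and turned the split over all windows to 703 higher in AG and 509 higher in GG, and that over windows with far AG-only regions to 422 and 187.

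No single window passed. By limma, 0% of the 2682 windows reached a Benjamini-Hochberg adjusted p under 0.05, and 301 (11.2%) had an unadjusted p under 0.05. Among the 1354 windows with far AG-only regions, 121 (8.94%) had an unadjusted p under 0.05, 59 of them higher in AG and 62 higher in GG. Of the 301 such windows among all 2682, 93 were higher in AG and the rest in GG. With a variance trend limma called 4 windows, of which 2 held far AG-only regions and were higher in AG, and with an offset of 10000 bp it called 2, which held none.

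Of the 5 windows with most far AG-only regions, 4 held 6 and 1 held 5, which was taken from several with 5 for its highest weaker score. On chromosome 16 from 2000001 to 3000000 the remaining hotspots covered 57.3 and 67.5 kb in AG replicates 1 and 2, against 58.6 and 43.9 kb in GG replicates 1 and 2, a scaled log2 difference of 0.52 (SE 0.25). On chromosome 10 from 70000001 to 71000000 AG replicates 1 and 2 had 26.7 and 35.9 kb and GG replicates 1 and 2 had 25.8 and 31.6 kb, a log2 difference of 0.34 (SE 0.27). From 92000001 to 93000000 the AG libraries had 53.0 and 70.5 kb and the GG libraries 58.7 and 61.0 kb, a log2 difference of 0.26 (SE 0.24). On chromosome 12 from 114000001 to 115000000 coverage was 67.3 and 68.0 kb for AG and 78.5 and 67.8 kb for GG, a log2 difference of 0.12 (SE 0.25). From 9000001 to 10000000 on the same chromosome, with 5 regions, it was 34.2 and 39.9 kb for AG and 48.1 and 49.5 kb for GG, a log2 difference of -0.17 (SE 0.24). When each library was centred within chromosomes, the direction turned for both windows on chromosome 10 and for the last one. Adjusted by Benjamini-Hochberg, limma's p came to 0.529 on chromosome 16 and lay between 0.660 and 0.881 elsewhere, and over all alternatives run with these windows it was 0.237 at the lowest. None of these 5 windows was thus shown to have more of the other hotspots in AG.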

How the data were processed

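DNase-seq hotspots of 4 libraries, 2 AG and 2 GG, were analysed as deposited. The authors deposited 1 list per library with a score for each hotspot; file names give a false discovery rate of 0.01, and the scale of the score is unknown, and the sources used here do not name the caller. The submitters' processing notes name rheMac8 as build and list Trim Galore, Bowtie2, SAMtools and deepTools 3.3.1. The lists hold no counts, so no counting interval can be given.

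Hotspots were merged over lists, and 1 bp of a library's hotspots was enough to call a region in it. Scores were ranked within a list. Group means were compared by exact permutation over libraries. Windows of 1 Mb whose mean covered length reached 2000 bp were tested with limma (lmFit, eBayes) on log2 of covered bp plus 1000 bp divided by the library mean, Benjamini-Hochberg adjusted over all windows, without the replicate number as a block; fold changes on this scale understate those of sparse windows. The region and window steps were tested on simulated data.

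Named were the 8 regions scoring highest in their weaker AG library, the 5 farthest from shared regions, the 5 widest, 3 on each side of the limit, the 3 chains and the 5 windows with most regions, with ties settled by the highest weaker score. Members, lists and tests were chosen with earlier results of these data known. The distance to chromosome ends, the regions called in 1 library and the numbers by gap were added after the regions were seen, as were centring within chromosomes, coverage relative to far sequence and leaving group-only regions out of the divisor of flank coverage. Alternatives are in the closing section. Sequence, genes and motifs were not analysed here, since no genome of rheMac8 was used, and neither were the X and Y chromosomes, unplaced sequence, or the study's other assays. Limma 3.58.1 ran under R 4.3.3, and the rest under Python 3.11.15 with scipy 1.17.1, pandas 2.3.3, numpy 2.4.6 and matplotlib 3.10.9.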

Additional observations from a re-analysis of the deposited data

Results flagged for a closer look

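Outside chromosomes 1 to 20, each AG library had 1 hotspot on chromosome Y and neither GG library had any (0 and 0). It was set apart because it lies in data that the comparisons do not use and is above the level in GG. Chromosome X, also outside the comparisons, had 17 and 48 hotspots in AG replicates 1 and 2, against 82 and 117 in GG replicates 1 and 2. The Y chromosome is inherited through sperm, and the cause of the counts on either chromosome was not tested.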

How the results depend on the processing

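The number of far AG-only regions, 2115, was 1340 with a gap of 100 kb and 1282 in lists cut to their higher-scoring 50%, 2549 to 30996 when 1 library was left out (2549 without GG replicate 2, 30996 without AG replicate 1), and within 1.5 times under the other 6 alternatives. Of the 2115, 709 (33.5%) were found again in the higher-scoring 50%. This repeats the number with both hotspots in the upper 50% and is no separate check. In lists of equal number 1704 (80.6%) of the 2115 were found again, and in lists of equal covered length 1635 (77.3%). Their share of AG-only regions, 44.7%, was 66.3% and 28.3% with gaps of 20 and 100 kb, 70.3% with 50% of the region covered, 50.4% in the higher-scoring 50%, 47.0% in lists of equal covered length and 39.0 to 55.6% with 1 library left out. Far GG-only regions per far AG-only region, 3.09, came to 1.37 in lists of equal covered length and 0.229 to 13.8 with 1 library left out, where a region needs only 1 library of that group. The share of regions in the outer 5 Mb, 12.4%, was 8.76 to 11.6% with 1 library left out and 11.6 to 13.7% under the other 8 alternatives. The ratio beyond 500 kb over that at 50 to 100 kb, 1.75, ranged over 0.709 to 3.07 with 1 library left out, and the ratio on chromosome 5 over that on chromosome 19, 4.51, over 2.28 to 6.16.

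The flank difference, 0.135, kept its direction in every alternative run: 0.204 with flanks of 20 kb, 0.0695 with 200 kb, 0.141 for regions called in 1 library, 0.113 in the higher-scoring 50%, 0.183 with group-only regions kept in the divisor, 0.343 relative to far sequence and 0.0837 to 0.186 with 1 library left out. As an undivided percentage it was 0.0651, with AG and GG libraries overlapping (two-sided exact permutation p = 1.00). Limma called 4 windows with a variance trend, 2 with an offset of 10000 bp and 0 otherwise. The median log2 difference of windows with far AG-only regions minus that of all windows, 0.0822, was 0.18 in windows of 200 kb, 0.0623 when centred within chromosomes and 0.0653 to 0.10 with 1 library left out. The log2 difference of single windows turned in 4 cases: when centred within chromosomes, chromosome 10 from 70000001 (-0.14) and from 92000001 (-0.22) and chromosome 12 from 9000001 (0.05), and without AG replicate 1, chromosome 12 from 114000001 (-0.03 to 0.27 with 1 library left out). The causes were not tested. With the replicate number as a block limma also called 0 windows (lowest adjusted p 0.498, n = 2 libraries per group); the labels give replicates only a number, and the deviations of same-numbered libraries correlated at -0.0788 over 2682 windows.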

Other observations

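Scores of the 2 libraries went together only weakly within the regions. Over the 2115 far AG-only regions the scores of AG replicates 1 and 2 had a Spearman correlation of 0.302, close to 0.310 between the GG libraries in far GG-only regions and above 0.127 to 0.214 in the 4 mixed pairs. The weaker score correlated with the width of the region (0.222 in far AG-only and 0.363 in far GG-only regions) and hardly with the gap to shared open chromatin (-0.0315 and -0.0555). These are correlations across regions of the same lists, given as descriptions.

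Hotspots in far AG-only regions made up 3.31% of the list of AG replicate 1 and 2.51% of that of AG replicate 2. Within 1 kb, 44 of the far AG-only regions had another of their kind.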
